A study of Mus musculus with 8 samples.

Results

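The liver genes described here make glucose, take it up and use it, or pass on the signals of insulin and fasting. They are 9 of the 19348 genes of the table: Pck1, G6pc, Fbp1, Pcx, Pklr, Slc2a2, Irs2, Foxo1 and Ppargc1a. They were taken by symbol, each stands on a single row of the table, and all of them had enough reads to be tested. RNA was sequenced from liver of mice at 5 weeks of age, in 5 libraries of the Stab1 knockout and 3 of the wild type. The product of Stab1, stabilin-1, is an endocytic receptor found on liver sinusoidal endothelium and on subsets of macrophages. The strain, the feeding state, the sex, the hour of collection and the design of the knockout allele are not stated in the labels. The labels also leave unsaid whether each library is a different animal. The p-values therefore speak only of the variation among these 8 libraries, some of which may be technical.

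The liver keeps blood glucose steady by storing glucose after meals and by making it during fasting. Gluconeogenesis carries pyruvate through oxaloacetate and phosphoenolpyruvate back to glucose 6-phosphate, and glucose-6-phosphatase then frees the glucose. In fasting, glucagon acts through cyclic AMP and the factor CREB to raise transcription of Ppargc1a, Pck1 and G6pc, while FOXO1 acts on G6pc, Pck1 and Irs2. Insulin reverses this, because AKT phosphorylates FOXO1 and drives it out of the nucleus. Several of these genes therefore change within hours of a meal and with the daily rhythm, whereas others are steadier.

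The targeted gene matched the labels, with 5 to 16 Stab1 reads in the knockout and 474 to 594 in the wild-type libraries. Counted reads per library ran from 4.85 to 10.79 M. The tissue label was met by hepatocyte genes: 12 of 12 listed hepatocyte markers were detected in every library. A pair of libraries stood apart from others of their genotype. Knockout library 1 was the shallowest and held 320 reads of Ddx3y, a gene of the Y chromosome, where all others held 0 to 4. It also held 3 reads of Xist, which is transcribed from the inactive X chromosome, so by these reads it was male and the others female. Wild-type library 3 differed from the other wild-type libraries in its clock genes. In Cry1 and Nfil3, clock genes given below, it lay within the knockout range and wild-type libraries 1 and 2 lay above that range. Fits without wild-type library 3 therefore set the knockout against wild-type libraries 1 and 2 alone. Dbp, a clock output factor chosen after its values were seen, was at 0.472 and 0.461 CPM in wild-type libraries 1 and 2 and at 145 CPM in wild-type library 3. CPM is the read count of a gene scaled to the depth of its library, here also corrected for library composition. Calls gained by named genes without either library are given below beside the values with all libraries.

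No difference between the genotypes was called in any of the 9 members. By the edgeR quasi-likelihood test, a gene-wise test on counts, 0 of 9 had an adjusted p below 0.05, where 0.227% of all 12338 tested genes did (0.0729% higher and 0.154% lower in knockout). Counted at an unadjusted p below 0.05 the number was also 0 of 9, against 13.6% of tested genes (7.73% higher and 5.9% lower). DESeq2, another count test, called 0 of 9, against 1.03% (0.507% higher and 0.522% lower). Without knockout library 1 edgeR called 0 of 9, against 0.928% (0.415% higher and 0.513% lower). Without wild-type library 3 it called 0 of 9, against 0.745% (0.184% higher and 0.561% lower). DESeq2 without knockout library 1 also called 0 of 9, against 8.61% of tested genes (5.52% higher and 3.09% lower). The median log2 fold change of knockout over wild type was -0.08 over the members and -0.01 over all tested genes. The members differed widely in how closely their level was measured, and 95% intervals of the log2 fold change below show which sizes of difference remained possible.

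**Figure D1:**
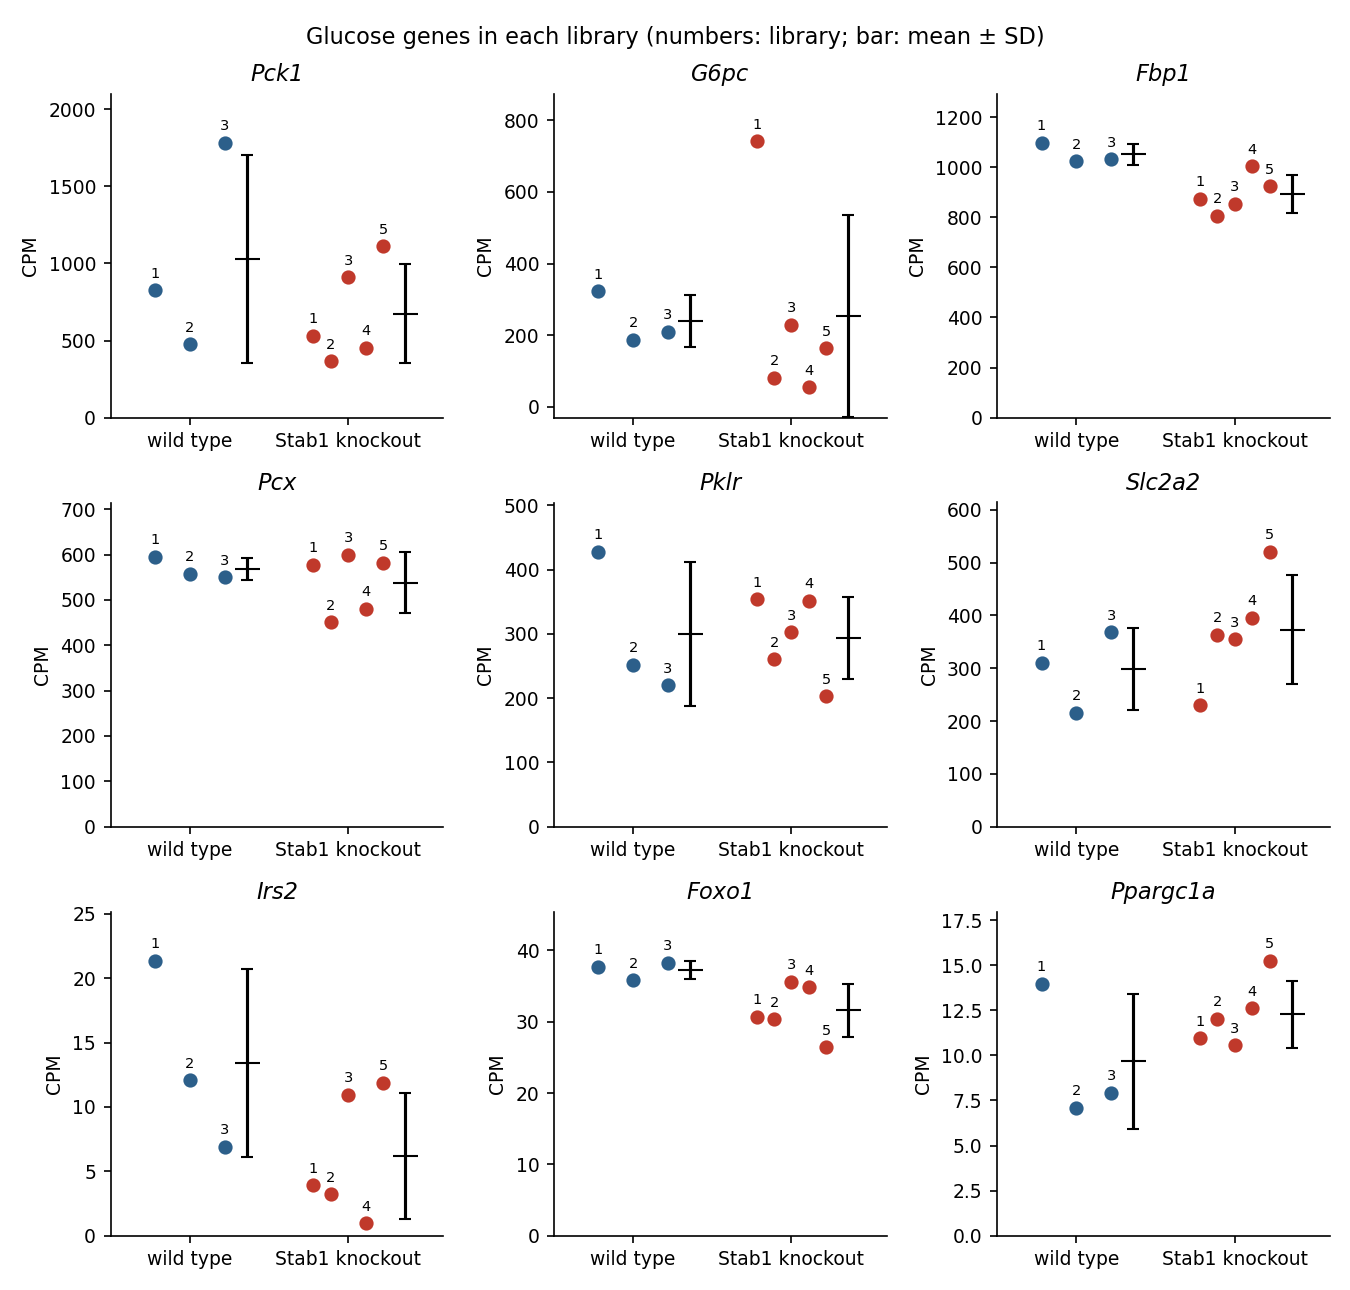
CPM of each member in each library, by genotype (blue, wild type; red, Stab1 knockout), with the library number above each point and the mean ± SD beside it. The points of Fbp1 and Foxo1 do not overlap between genotypes, and G6pc has 1 knockout library at 741 CPM above the other 4 at 54.1 to 229 CPM.

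The levels of the members were compared with each other per gene length, in the authors' deposited RPKM, which divide the reads of a gene by its length and by the depth of the library. Fbp1 was the highest, with a mean of 643 RPKM over the 8 libraries, and it exceeded Pck1 (307 RPKM) in 8 of 8. Pck1 exceeded Slc2a2 (133 RPKM) in 7 of 8 libraries, knockout library 2 being the exception. Slc2a2 was above Pcx (132 RPKM) in 4 of 8 libraries, so these neighbours did not separate. Pcx was above G6pc (112 RPKM) in 7 of 8 libraries. G6pc was above Pklr (107 RPKM) in only 3 of 8, and these again did not separate. The 3 regulatory genes lay far lower, at 6.07 RPKM for Foxo1, 2.21 RPKM for Irs2 and 1.73 RPKM for Ppargc1a, and Irs2 was above Ppargc1a in 5 of 8 libraries.

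Pck1 encodes the cytosolic phosphoenolpyruvate carboxykinase, which commits oxaloacetate to gluconeogenesis, and G6pc the catalytic subunit of glucose-6-phosphatase, which releases free glucose from the cell. Their upstream sequences are shown because they were 2 of the 3 most variable members and because each holds a short sequence tied to hormonal control. The sequences are from RefSeq for GRCm38.p6, 5′ to 3′ on the strand of the gene. They begin 250 bases before the RefSeq start and stop where a GENCODE M21 exon begins. The Pck1 stretch is chr2:173152823-173153047 on the plus strand, and the G6pc stretch is chr11:101367466-101367560 on the plus strand. Capitals mark ACGTCA in Pck1, the cyclic AMP response core TGACGT read on the opposite strand, and TGTTTTG in G6pc, the insulin response core CAAAACA read on the opposite strand.
Pck1: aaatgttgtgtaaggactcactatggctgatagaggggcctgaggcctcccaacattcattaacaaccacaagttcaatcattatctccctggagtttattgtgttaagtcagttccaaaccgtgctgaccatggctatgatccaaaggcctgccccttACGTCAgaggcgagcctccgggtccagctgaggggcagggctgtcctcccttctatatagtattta
G6pc: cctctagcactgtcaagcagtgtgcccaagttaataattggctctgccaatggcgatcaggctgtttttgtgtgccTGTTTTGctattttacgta
The Pck1 match begins at position -91 from the RefSeq start and the G6pc match at position -174. Searched on both strands in the 250 bases before each of 32851 mouse RefSeq starts, TGACGT was found in 6.47% and CAAAACA in 5.56%. A match describes the letters and does not show that a factor is bound there.

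Pck1 varied between libraries of both genotypes. Its level in knockout libraries 1 to 5 was 532, 366, 910.3, 453 and 1111 CPM. In wild-type libraries 1 to 3 it was 826, 476 and 1780.1 CPM. Wild-type library 3 was the highest of all and knockout library 2 the lowest, a ratio of 4.86, and the groups overlapped. The log2 fold change was -0.61 (SE 0.45, 95% interval -1.60 to 0.39, edgeR adjusted p = 0.525). The lower knockout mean of 674 ± 320.3 CPM (SD, n = 5) against 1027 ± 675 CPM (SD, n = 3) rested on wild-type library 3. Without that library the log2 fold change was 0.05 (SE 0.43, edgeR adjusted p = 0.9497). In bulk tissue, fewer cells of a type and less RNA per cell cannot be told apart, here as for every gene below.

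G6pc also turned on a single library. It stood at 741 CPM in knockout library 1 and at 80.5, 229, 54.1 and 164 CPM in knockout libraries 2 to 5. Wild-type libraries 1 to 3 held 322, 187 and 209.7 CPM. Knockout library 1 was thus above every wild-type library, knockout library 3 lay within the wild-type range and knockout libraries 2, 4 and 5 lay below it. With all libraries the log2 fold change was 0.08 (SE 0.71, 95% interval -1.50 to 1.66, edgeR adjusted p = 0.965). Without knockout library 1 it was -0.87 (SE 0.42, edgeR adjusted p = 0.224), opposite in sign and still not called. Reads covered 99.55% of G6pc in knockout library 1 and 99.51% to 99.82% in the other libraries. That library also differs in sex and in depth, and the part of either in its G6pc level was not tested. Pck1 in that library was at 532 CPM, the median of the knockout libraries.

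Fbp1 and Pcx, by contrast, were among the steadier genes of the liver. Fbp1 encodes fructose-1,6-bisphosphatase, which removes a phosphate in the step that opposes phosphofructokinase. Its level was 875, 807, 855, 1004 and 924 CPM in knockout libraries 1 to 5 and 1097, 1023 and 1032 CPM in wild-type libraries 1 to 3. Every knockout library lay below every wild-type library, with a gap of 19.3 CPM between knockout library 4 and wild-type library 2. The log2 fold change was -0.24 (SE 0.13, 95% interval -0.53 to 0.06, edgeR adjusted p = 0.432), and it lay between -0.28 and -0.20 with any single library left out. The summed level of the 12 hepatocyte markers was below the wild-type range in every knockout library, at 117104 to 187190 against 198454 to 203107 CPM, although 4 of the 12 had a higher mean in knockout. Alb made up the largest part of that sum, at 46519 to 103809 CPM in knockout libraries and at 117989 to 130363 CPM in wild-type libraries. No other listed marker separated the genotypes. Tf, the next most abundant, was at 17512 to 23666 CPM in knockout and 19208 to 23305 CPM in wild-type libraries. The gap in the sum was therefore that of Alb and not of the markers as a set. The part of this difference in the Fbp1 level was not tested.

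Pcx encodes pyruvate carboxylase, the mitochondrial enzyme that turns pyruvate into oxaloacetate and so opens the pathway. It was at 578, 451, 600.0, 481 and 582 CPM in knockout libraries 1 to 5 and at 595, 558 and 549.8 CPM in wild-type libraries 1 to 3. The wild-type values fell inside the knockout range. Its log2 fold change of -0.08 (SE 0.15, 95% interval -0.41 to 0.26, edgeR adjusted p = 0.817) was among the most closely bounded of the 9. The 250 bases before one of its 2 RefSeq starts held the E-box CACGTG, found before 6.02% of starts, and neither TGACGT nor CAAAACA. Fbp1 held none of the 4 motifs searched, the fourth being the TATA box TATAAA, which lies before 12.4% of starts.

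Several tissues other than liver make glucose or carry these transporters. Of 8 kidney and intestine markers, Slc12a1, Slc34a1, Sis and Alpi had no read in any library, 4 of 8 had a higher mean in knockout, and the summed level was 24.3 to 139.9 CPM in knockout and 36.7 to 72.8 CPM in wild-type libraries. Fabp2 carried nearly all of that sum, at 21.1 to 137 CPM in knockout libraries and 35.6 to 72.02 CPM in wild-type libraries. Of 8 pancreas markers, Ins1, Ins2, Gcg, Cpa1 and Cel had no read in any library, 3 of 8 had a higher mean in knockout, and the sum was 37.2 to 83.9 against 23.7 to 32.4 CPM. This sum was the level of 1 gene, Cela1, since Prss2 had at most 1 read and Pnlip at most 2. Whether any Fabp2 or Cela1 RNA came from other tissues, and whether such tissue had a part in the levels of the members, was not tested.

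Slc2a2 encodes GLUT2, the low-affinity transporter through which glucose enters and leaves hepatocytes. It was at 230.2, 363, 355, 395 and 520.3 CPM in knockout libraries 1 to 5 and at 311, 216 and 369 CPM in wild-type libraries 1 to 3. Knockout library 5 was the highest and wild-type library 2 the lowest, and the groups overlapped. Its log2 fold change was 0.32 (SE 0.26, 95% interval -0.26 to 0.90, edgeR adjusted p = 0.562). Its sign was positive with every single library left out, from 0.13 without wild-type library 2 to 0.50 without wild-type library 3.

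Pklr encodes the pyruvate kinase of liver and red cells, which runs glycolysis in the direction opposite to Pck1. Knockout libraries 1 to 5 held 354, 261, 303, 352 and 203 CPM, and wild-type libraries 1 to 3 held 428, 252 and 219.9 CPM. The highest value was in wild-type library 1 and the lowest in knockout library 5, and the other wild-type libraries lay inside the knockout range. The log2 fold change was -0.03 (SE 0.26, 95% interval -0.59 to 0.54, edgeR adjusted p = 0.969), and without wild-type library 1 it was 0.32 (adjusted p = 0.774). Since red cell precursors also transcribe Pklr, the 8 erythroid markers were set beside it. All 8 had a higher mean in knockout, and their summed level was 73.3 to 195.4 CPM in knockout and 68.4 to 72.7 CPM in wild-type libraries. Knockout libraries 1 and 4, with the highest Pklr levels among knockouts, had erythroid sums of 195.4 and 176 CPM, and knockout library 5, with the lowest, had 187 CPM. The part of erythroid RNA in the Pklr level was not tested.

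**Figure D2:**
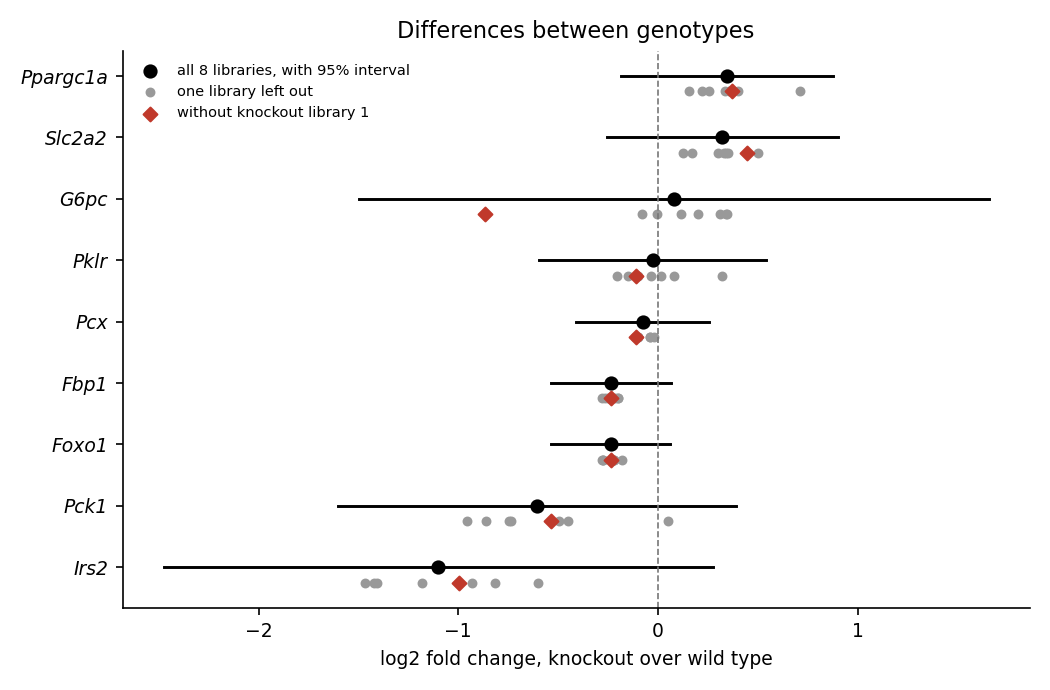
Log2 fold change of knockout over wild type for each member (black points, all 8 libraries, with 95% intervals) and with each library left out in turn (grey points; red diamonds, without knockout library 1). Every interval spans 0, and G6pc moves from 0.08 to -0.87 without knockout library 1.

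Irs2, an adaptor that carries the signal of the insulin receptor to phosphatidylinositol 3-kinase, was the most variable member. Its upstream sequence is shown with part of that of Ppargc1a, the coactivator PGC-1alpha, because Irs2 carries the same insulin response letters as G6pc and Ppargc1a the same cyclic AMP response letters as Pck1. The Irs2 stretch is chr8:11008930-11009179 on the minus strand, the 250 bases before the RefSeq start. The Ppargc1a stretch is chr5:51567727-51567825 on the minus strand, positions -100 to -2. Both are from RefSeq for GRCm38.p6. Capitals mark CACGTG and TGTTTTG in Irs2 and ACGTCA in Ppargc1a.
Irs2: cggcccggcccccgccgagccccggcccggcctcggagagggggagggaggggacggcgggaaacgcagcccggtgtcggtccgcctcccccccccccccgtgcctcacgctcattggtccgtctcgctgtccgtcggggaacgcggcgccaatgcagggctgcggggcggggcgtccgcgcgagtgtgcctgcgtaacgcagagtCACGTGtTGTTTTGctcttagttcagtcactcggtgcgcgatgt
Ppargc1a: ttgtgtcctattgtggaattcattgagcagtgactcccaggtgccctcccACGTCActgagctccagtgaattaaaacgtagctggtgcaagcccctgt
In Irs2 the E-box begins at position -44 and TGTTTTG at position -37, with 1 base between them. In Ppargc1a the match begins at position -50. The windows before the Slc2a2 and Foxo1 starts held none of the 4 motifs.

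The Irs2 level was 3.91, 3.23, 10.9, 0.953 and 11.9 CPM in knockout libraries 1 to 5. It was 21.3, 12.1 and 6.91 CPM in wild-type libraries 1 to 3. Knockout libraries 3 and 5 lay inside the wild-type range and knockout libraries 1, 2 and 4 below it. The counts behind these values were small, from 9 reads covering 9.84% of the gene in knockout library 4 to 226 reads covering 90.19% in wild-type library 1. The log2 fold change of -1.10 (SE 0.62, 95% interval -2.47 to 0.27, edgeR adjusted p = 0.427) was the largest of the 9 and was not called. It was -0.60 without wild-type library 1 and -1.47 without knockout library 5. With the breadth of read coverage as a covariate it was -0.15 (edgeR adjusted p = 0.955). That breadth, the mean share of gene length covered over 6455 genes of middle abundance, was 73.4% to 83.3% in the knockout group and 81.3% to 85.2% in the wild-type group. It was lowest in knockout library 1, the shallowest. Because it was mostly lower in knockout, this fit cannot fully separate it from genotype.

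Foxo1 encodes the forkhead factor that insulin keeps out of the nucleus, a control on the protein that transcript counts do not show. It was at 30.7, 30.3, 35.6, 34.8 and 26.4 CPM in knockout libraries 1 to 5 and at 37.7, 35.8 and 38.3 CPM in wild-type libraries 1 to 3. All knockout values lay below all wild-type values, but knockout library 3 and wild-type library 2 were only 0.205 CPM apart. When libraries were scaled by DESeq2 size factors the groups overlapped. The log2 fold change was -0.24 (SE 0.13, 95% interval -0.53 to 0.06, edgeR adjusted p = 0.428). With Fbp1, 2 of 9 members had every knockout value below every wild-type value, against 3.61% of tested genes, and 0 of 9 had them all above, against 3.04%. Without knockout library 1 the same 2 of 9 members were lower, against 8.82% of tested genes, and 0 of 9 were higher, against 9.39%. Neither gene was called in any of the alternatives run.

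Ppargc1a was at 10.95, 12.04, 10.6, 12.6 and 15.2 CPM in knockout libraries 1 to 5 and at 13.98, 7.10 and 7.91 CPM in wild-type libraries 1 to 3. Wild-type libraries 2 and 3 lay below every knockout library and wild-type library 1 lay above all but knockout library 5. Its 56 to 148 reads per library gave a log2 fold change of 0.35 (SE 0.24, 95% interval -0.18 to 0.88, edgeR adjusted p = 0.498). Without wild-type library 1 the log2 fold change was 0.71 (adjusted p = 0.736), and without wild-type library 2 it was 0.16.

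The members thus fell into steady and variable genes. The SD of log2 CPM within genotypes was 0.10 for Fbp1, 0.14 for Foxo1 and 0.16 for Pcx, below the median of 0.29 over all tested genes. It was 0.34 for Ppargc1a, 0.40 for Pklr and 0.41 for Slc2a2. It reached 0.78 for Pck1 and 1.22 for both G6pc and Irs2. Ranked among the 12338 tested genes, Fbp1 stood at the 2.85th percentile of this spread, Pck1 at the 95.7th, G6pc at the 98.8th and Irs2 at the 98.8th.

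**Figure D3:**
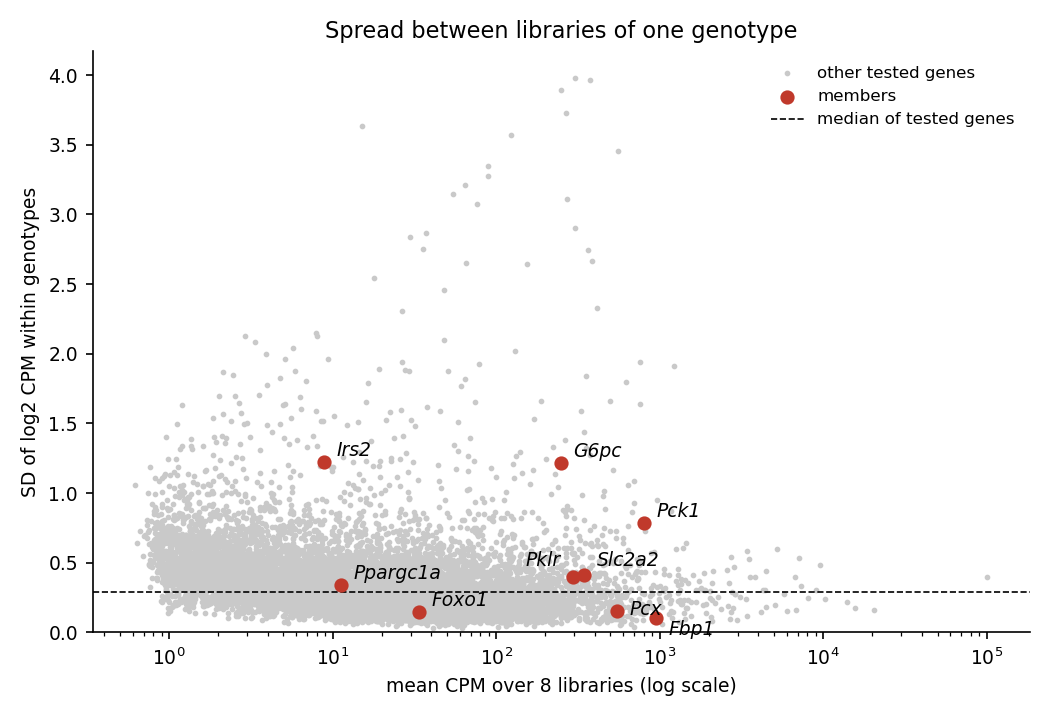
SD of log2 CPM between libraries of the same genotype against mean CPM over the 8 libraries (log scale) for all tested genes (grey) and the members (red), with the median of tested genes at 0.29 (dashed). G6pc and Irs2, both at 1.22, and Pck1 at 0.78 stand above most genes of their abundance, and Fbp1, Foxo1 and Pcx lie below the median.

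For the 3 members whose log2 CPM had an SD of at least 0.5 over the 8 libraries, the genes with the most similar profile were sought among tested genes of at least 10 CPM. Likeness was the root mean square difference between log2 CPM profiles, each centred on its own mean, so a smaller value is more alike. The comparison is a description over 8 libraries that share both genotypes. For Irs2, 3 of 7664 candidates were nearest: Bcl6, a transcriptional repressor (0.55), Igfbp1, a secreted binding protein of insulin-like growth factors (0.59), and Pdk4, a kinase that shuts off pyruvate dehydrogenase (0.62). The median over candidates was 1.28. Igfbp1 was at 54.2, 22.7, 144, 10.1 and 129 CPM in knockout libraries 1 to 5 and at 99.5, 57.6 and 38.5 CPM in wild-type libraries 1 to 3. As with Irs2, knockout library 4 was its lowest and knockout libraries 3 and 5 its highest among knockouts. Pdk4 was at 14.9, 8.14, 21.5, 2.12 and 38.7 CPM in the knockout libraries, again lowest in knockout library 4, and at 49.2, 38.1 and 5.81 CPM in the wild-type libraries. None of these 3 genes was called (edgeR adjusted p = 0.371 for Bcl6, 0.932 for Igfbp1 and 0.599 for Pdk4).

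For Pck1 the nearest of 7663 candidates were Lipg, endothelial lipase (0.36), Slc8b1, a mitochondrial sodium and calcium exchanger (0.36), and Ppara, the nuclear receptor that drives fatty acid oxidation (0.40), against a median of 0.77. Ppara was highest in wild-type library 3 (370 CPM) and next in knockout library 5 (296 CPM), the order seen for Pck1. For G6pc the nearest were Map3k13 (0.52), Elk4 (0.53) and Lyst (0.60), against a median of 1.103. These likenesses leaned on knockout library 1, without which Lyst ranked 47 and Map3k13 ranked 14, while Elk4 ranked 4. Without that library Lipg, Slc8b1 and Ppara ranked 2, 1 and 11 for Pck1, and Bcl6, Igfbp1 and Pdk4 ranked 3, 2 and 5 for Irs2.

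**Figure D4:**
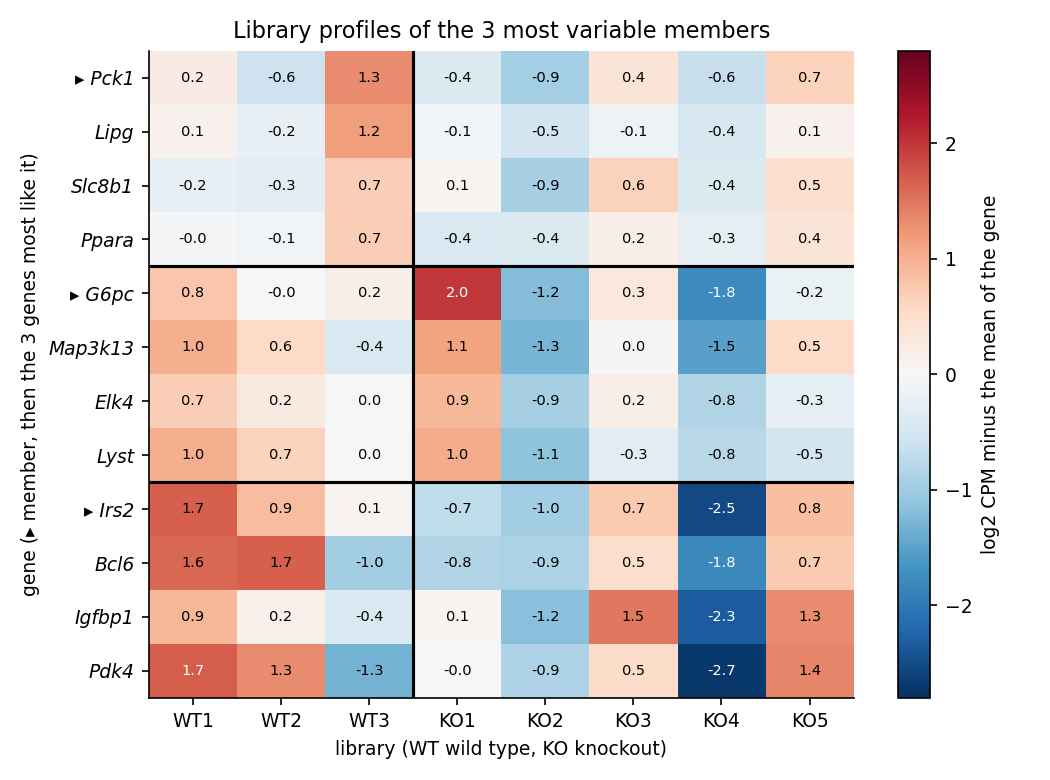
Log2 CPM of Pck1, G6pc and Irs2 (marked) and of the 3 genes most like each, minus the mean of the gene, in every library (red, above the mean; blue, below). Irs2, Bcl6, Igfbp1 and Pdk4 are all lowest in knockout library 4, and G6pc is highest in knockout library 1.

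The other genes of glucose metabolism were followed in 9 lists, with a list of 15 clock genes beside them. The 10 lists held 166 distinct genes, of which 160 were tested. None was called by edgeR, and 15 of 160 (9.38%) had an unadjusted p below 0.05, against 13.6% of all tested genes. DESeq2 called 2 of them, Tat and Sik1, both lower in knockout, against 1.03% of all genes it tested (0.522% lower in knockout). Among all 160, 8 genes (5%) had every knockout value below every wild-type value and 3 genes (1.88%) had them all above, against 3.61% and 3.04% of tested genes.

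Of 18 tested genes of gluconeogenesis and its amino acid supply, 0 passed in either direction, 9 had positive and 9 negative fold changes, and the median was 0.02. The smallest p belonged to Tat, tyrosine aminotransferase, a classical target of glucocorticoids and glucagon. Tat was at 365 to 538 CPM in knockout libraries and at 1126, 946 and 474 CPM in wild-type libraries 1 to 3, so wild-type library 3 lay inside the knockout range. Its log2 fold change was -0.998 (SE 0.26, edgeR adjusted p = 0.264), and Tat was called without wild-type library 3 (-1.29, adjusted p = 0.0196) and by DESeq2 (adjusted p = 0.0276). Sds, serine dehydratase, which makes pyruvate from serine, was at 62.9 to 103 CPM against 112 to 127 CPM (-0.59, edgeR adjusted p = 0.301), and was called by DESeq2 without knockout library 1 (adjusted p = 0.0485). That fit, chosen after seeing the data, called 8.61% of all genes it tested (5.52% higher and 3.09% lower in knockout). The same share applies to its calls given below. Lpin1, a phosphatidate phosphatase and coactivator, had a log2 fold change of -0.59 (adjusted p = 0.346).

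In insulin and glucagon signalling 0 of 20 tested genes passed in either direction, and the median was -0.02. Sik1, a salt-inducible kinase that CREB induces and that restrains the CREB coactivator CRTC2, had the smallest p of all the lists. It was at 11.7, 6.58, 9.90, 5.19 and 4.85 CPM in knockout libraries 1 to 5 and at 23.2, 23.0 and 14.4 CPM in wild-type libraries 1 to 3. Every knockout library lay below every wild-type library. On the log2 scale knockout minus wild type was -1.42 (SE 0.30, edgeR adjusted p = 0.168). The gene passed without knockout library 1 (-1.61, SE 0.27, edgeR adjusted p = 0.0264) and by DESeq2 (adjusted p = 0.00300). Grb14, an adaptor that inhibits the insulin receptor, was at 62.6 to 77.5 CPM in knockout and 53.9 to 57.0 CPM in wild-type libraries, without overlap (0.31, edgeR adjusted p = 0.346), and Sos1 had a log2 fold change of 0.24 (adjusted p = 0.394).

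Of 21 tested transcriptional regulators 0 passed, with a median of 0.03. Srebf1, which drives lipid synthesis under insulin, had a log2 fold change of -0.68 (edgeR adjusted p = 0.338), Ppargc1b, the paralogue of Ppargc1a, one of -0.86 (0.358), and Hnf4a, a core hepatocyte factor, one of -0.28 (0.448). Srebf1 was called by DESeq2 without knockout library 1 (-0.77, adjusted p = 0.0391). Of 16 fasting and insulin targets 0 passed, with 8 positive and 8 negative and a median of -0.09. Without wild-type library 3 the median was 0.19, with 10 of 16 positive. Arrdc4, an arrestin that limits glucose uptake, was at 13.3 to 21.5 CPM in knockout and 23.2 to 32.01 CPM in wild-type libraries (-0.64, edgeR adjusted p = 0.301). Bcl6 had a log2 fold change of -1.34 (adjusted p = 0.371) and Sesn1, a stress-induced sestrin, one of -0.26 (0.431).

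Glycolysis, glycogen and sugar handling gave 0 called genes. The 20 tested glycolysis genes had a median of 0.00, which was -0.16 without knockout library 1. Hk1, a hexokinase of low abundance in liver, was at 2.36 to 4.30 CPM in knockout and 4.31 to 4.82 CPM in wild-type libraries (log2 fold change -0.47, edgeR adjusted p = 0.392). Eno1, enolase, had a log2 fold change of -0.33 and Pgk1, phosphoglycerate kinase, one of -0.21. The 19 glycogen genes had a median of -0.12, with 8 positive and 11 negative. Of these, 2 had every knockout value below every wild-type value and 1 had them all above, against 3.61% and 3.04% of tested genes. Gyg, the glycogenin that primes glycogen, was higher in every knockout library (0.27, edgeR adjusted p = 0.420) and Gsk3b, a kinase acting on glycogen synthase, had a log2 fold change of -0.35.

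Among 9 tested fructose and galactose genes the median was 0.11 and 0 passed. Khk, ketohexokinase, the entry enzyme of fructose breakdown, was at 435 to 610.1 CPM in knockout and 343 to 424 CPM in wild-type libraries, with no overlap (0.46, SE 0.17, edgeR adjusted p = 0.336). Galk1, galactokinase, had a log2 fold change of 0.68. DESeq2 without knockout library 1 called both Khk (0.52, adjusted p = 0.0342) and Galk1 (0.83, adjusted p = 0.0176) higher in knockout. Glyctk, glycerate kinase, had a log2 fold change of -0.31. Of 12 sugar and lactate transporters 7 were tested, with a median of -0.19, and Slc2a9, Slc2a1 and Slc16a1 had log2 fold changes of -0.25, -0.36 and -0.19. The 16 genes of pyruvate dehydrogenase and the pentose phosphate route had a median of 0.11. Pdp2, a pyruvate dehydrogenase phosphatase, was lower in every knockout library (-0.42, edgeR adjusted p = 0.346), Pgls had a log2 fold change of 0.37 and Dld one of 0.51. DESeq2 without knockout library 1 called Pdk1, a kinase of pyruvate dehydrogenase named for this call, higher (0.47, adjusted p = 0.0382).

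**Figure D5:**
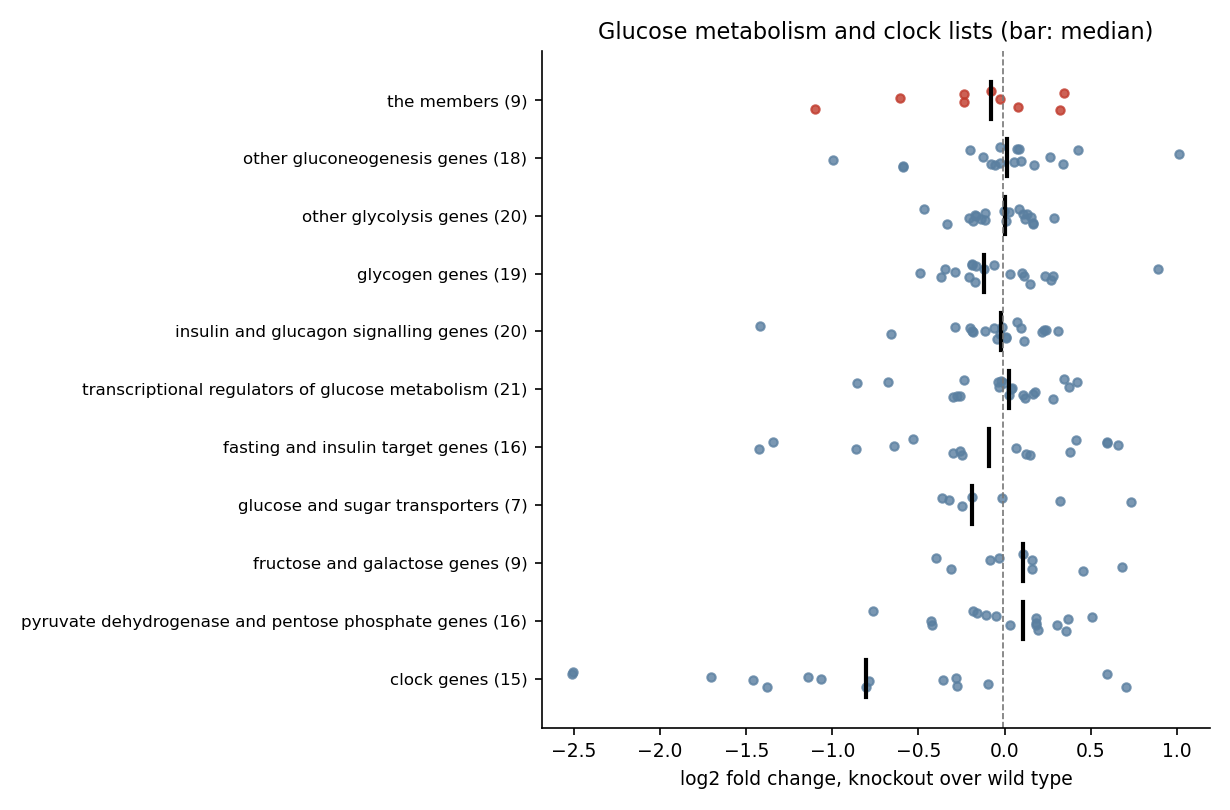
Log2 fold change of knockout over wild type for the members (red) and for the tested genes of each list (blue), with the list median as a bar, the number of genes in brackets, and the median of all tested genes dashed at -0.01. The medians of the glucose lists lie between -0.19 and 0.11, and that of the clock genes at -0.80, which was 0.09 without wild-type library 3.

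Clock genes were followed because glucose production is rhythmic. Of 15 tested, 13 had negative fold changes, the median was -0.80 and 0 were called with all libraries. Without wild-type library 3 the median was 0.09, with 9 of 14 fitted genes positive and 5 negative. Npas2 was at 14.5, 14.2 and 0.200 CPM in wild-type libraries 1 to 3 and at 0.953 to 4.11 CPM in the knockout libraries. Cry1 was at 17.4, 19.1 and 6.71 CPM against 6.002 to 7.80 CPM, and Nfil3 at 52.6, 50.04 and 10.1 CPM against 4.45 to 26.2 CPM. In each of the 3 genes, wild-type libraries 1 and 2 were close to each other and above every knockout library. Wild-type library 3 lay below the knockout median in each. Without wild-type library 3, edgeR called 5 clock genes, against 0.745% of all tested genes. Npas2 and Cry1 were lower and Nr1d2, Dbp and Tef higher in knockout, the last 3 chosen after their values were seen. For Dbp this log2 fold change, against wild-type libraries 1 and 2 alone, was 5.88 (SE 1.07, edgeR adjusted p = 0.0483). Cry1 was also called lower by DESeq2 without knockout library 1 (-1.03, adjusted p = 0.0279). Among the members, wild-type library 3 had the highest Pck1 level and the lowest wild-type levels of Irs2 and Pklr. The part of the clock state in these levels was not tested.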

How the data were processed

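Liver RNA of 5 Stab1 knockout and 3 wild-type mouse libraries was sequenced, grouped and numbered by their titles. The authors deposited 1 gene table. Per the file headers it holds counts of uniquely mapped reads per gene, the percent of gene length covered, and RPKM values, which equal those recomputed from counts, totals and lengths. The aligner, the genome build, the annotation and the strandedness are not given in the sources used, so reads of a gene and an antisense partner cannot be told apart. A dash was read as 0, and rows sharing a gene identifier were summed.

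Counts were tested in R 4.3.3 with edgeR 4.0.16 (filterByExpr, TMM scaling, quasi-likelihood F test, no covariate), with Benjamini-Hochberg adjustment over all 12338 tested genes and calls at 0.05. DESeq2 1.42.0 was an alternative. The SE is the size of the log2 fold change divided by the square root of F, and 95% intervals use the t quantile of the fit. CPM uses TMM-scaled sizes, and log2 CPM a prior count of 2. A floor of 3 reads is 0.619 CPM in knockout library 1 and 0.278 to 0.335 CPM in the others, for counting error only. No 2 libraries of a genotype agreed within sampling noise.

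The members and lists were chosen with earlier results of these data known. Named are all 9 members, the 3 genes of smallest p in each list, and the 3 genes most like each member with an SD of at least 0.5, leaving out predicted and unnamed genes. 1 gene that this rule names is not reported here. Alternatives were other scalings, no filter, DESeq2, each library left out, the replicate number as a block, and coverage as a covariate. DESeq2 without knockout library 1 was chosen after seeing the data. Figures were drawn with matplotlib 3.10.9.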

Additional observations from a re-analysis of the deposited data

Results flagged for a closer look

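In 4 of the 47 genes examined for this, 1 of the 5 knockout libraries stood far from the other 4, judged by its gap to the nearest of them as a share of the whole range, where 0.71 is the 95% limit. Chance flags about 1 in 20 groups. G6pc was at 741 CPM in knockout library 1 against 54.1 to 229 CPM in the others (gap 0.746 of the range). In the same library Gsk3b was at 37.9 against 22.2 to 26.8 CPM (gap 0.711) and Lyst, named for its likeness to G6pc, at 28.4 against 6.13 to 11.1 CPM (gap 0.775). Lpin1 was at 38.2 CPM in knockout library 5 against 51.4 to 56.5 CPM (gap 0.719).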

How the results depend on the processing

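No member was called in any of the 15 alternatives run. Fbp1, Foxo1, Pcx, Irs2, Slc2a2 and Ppargc1a kept the sign of their log2 fold change in all 15. With single libraries left out, the log2 fold change ran from -0.96 to 0.051 in Pck1, from -0.87 to 0.35 in G6pc and from -0.21 to 0.32 in Pklr. G6pc was at -1.0035 with the coverage covariate and at -0.86 in DESeq2 without knockout library 1. Pklr was at 0.079 with the replicate block. The count of members whose groups do not overlap was 2, and 1 with DESeq2 size factors. Causes of these changes were not tested.

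Over all genes, 28 were called. With single libraries left out the count ran from 13 to 114. It was 114 without knockout library 1, and leaving out wild-type library 1, 2 or 3 gave 15, 13 or 93. It was 134 in DESeq2, 13 with the coverage covariate and 1057 in DESeq2 without knockout library 1. In the lists, leave-one-out counts ran from 0 to 1 in gluconeogenesis and in insulin and glucagon signalling, and from 0 to 5 in clock genes. DESeq2 called 1 gene in each of the first 2, against 1.03% of all genes it tested. DESeq2 without knockout library 1 called 3 in gluconeogenesis, 3 in fructose and galactose genes, and 1 each in signalling, regulators, pyruvate dehydrogenase and clock genes. It called 8.61% of all genes it tested.

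With the replicate number as a block, the count over all genes was 8. Libraries that share a number did not deviate together (correlations of 0.12, -0.15 and -0.15), and knockout library 1 was closest to wild-type library 2 (0.31). With 3 wild-type libraries these correlations cannot decide whether a shared number marks a pairing or batch, and the labels name none. Depth limits Irs2 most, with 9 reads in 1 library.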

Other observations

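Some fasting and pyruvate genes outside the named set, chosen after their values were seen, differed widely between libraries of a genotype. Fgf21, a hormone the fasting liver secretes, was at 1.23, 2.67 and 35.5 CPM in wild-type libraries 1 to 3 and at 2.35 to 11.4 CPM in the knockout libraries. Angptl4, an inhibitor of lipoprotein lipase, was at 22.4, 9.40 and 118 CPM against 36.4 to 149.6 CPM. In Fgf21 and Angptl4 wild-type library 3, which had the highest Pck1 level, was also the highest wild-type library. Other genes of the same list went the other way, with wild-type library 3 the lowest wild-type library. In wild-type libraries 1 to 3 Pdk4 was at 49.2, 38.1 and 5.81 CPM. Bcl6 was at 68.2, 71.5 and 11.2 CPM there, and Igfbp1 at 99.5, 57.6 and 38.5 CPM. Mpc1, a subunit of the mitochondrial pyruvate carrier, was at 120.5 to 915 CPM in knockout and 214 to 407 CPM in wild-type libraries (log2 fold change 1.01, SE 0.54, edgeR adjusted p = 0.409). It was called higher in knockout by DESeq2 without knockout library 1 (1.27, adjusted p = 0.00294), a fit that called 5.52% of all genes it tested higher.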
